A study of Mus musculus with 6 samples.

Results

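Integrins are paired receptors, each made of an alpha and a beta subunit, that tie epithelial cells to the extracellular matrix and signal in both directions across the membrane. In mammary epithelium, pairs of Itgb1 with Itga3 or Itga6 and the pair of Itga6 with Itgb4 bind laminins of the basement membrane, the pair of Itga2 with Itgb1 binds collagen, and the pair of Itga5 with Itgb1 binds fibronectin. Itgav pairs with Itgb1, Itgb3, Itgb5 or Itgb6 and binds ligands with an RGD motif, among them vitronectin, fibronectin, osteopontin and the latent forms of TGF-beta. An alpha subunit reaches the surface only with a beta partner, so the genes are described here with the partners they can take. The genes were chosen by name: 10 subunits named as epithelial (Itga2, Itga3, Itga5, Itga6, Itgav, Itgb1, Itgb3, Itgb4, Itgb5 and Itgb6) of 41795 features in the count file. All 10 passed the filter on low counts and were among the 15223 genes tested.

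The study profiled RNA of breast cancer cells from FVB/N-Tg(MMTV-PyVT)634Mul/J mice. There were 2 cell states, quiescent and activated cancer stem cells (CSCs), and 3 libraries of each. A CSC can renew itself and regrow a tumour. Both states carry the same transgene, the polyoma virus middle T antigen under the mouse mammary tumour virus promoter, which drives mammary tumours. The labels give no treatment, time or age, do not give the isolation or activation of the cells, nor whether libraries of a state came from separate animals or cultures. The p-values therefore cover only the spread among these 6 libraries, which may be technical. The comparison asked which genes differ between activated and quiescent CSCs.

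Library totals ran from 17785331 to 20510377 counts. Luminal markers summed to 9416 to 9833 CPM (counts scaled to library size, with TMM factors) in quiescent and 7968 to 8141 CPM in activated libraries, led by Krt8 and Krt18 (3 of 10 higher, 5 lower), and basal markers, led by Krt14 and Krt17, to 1009 to 1083 and 920.5 to 971 CPM (4 of 9 higher, 1 lower), so epithelial genes were abundant in both states. Fibroblast markers, led by Col1a1 and Col1a2, were at 833 to 858 and 1479 to 1629 CPM (10 of 11 tested higher, 0 lower). Myeloid markers, led by Cd14 and Lyz2, were at 854 to 913 and 1229.5 to 1250.4 CPM (8 of 14 higher, 1 lower), and pericyte and smooth muscle markers, led by Notch3 and Pdgfrb, at 217 to 228 and 279 to 297 CPM (3 of 7 higher, 2 lower). Endothelial markers, led by Vwf and Cdh5, summed to 5.57 to 7.76 and 5.15 to 7.28 CPM (0 of 5 tested higher, 1 lower), platelet markers, led by Itga2b and Gp9, to 4.76 to 4.99 and 3.22 to 3.58 CPM (its 1 tested marker lower), and lymphocyte markers, led by Cd4 and Cd79a, to at most 0.9 CPM with none tested, and Cldn5, Treml1 and Nkg7 had 0 counts in every library. Setd4, the gene in the study's title, had 9.54 ± 0.644 CPM in the former state and 9.71 ± 0.371 CPM in the latter (SD, n = 3), a log2 fold change of 0.03 (adjusted p = 0.87).

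The integrin genes changed in opposite directions and by unequal amounts. Itgb3, the beta partner of Itgav, rose 2.19-fold in activated CSCs, while Itga3, the alpha subunit of a laminin receptor, fell from 1008 ± 16.6 to 529.9 ± 38.2 CPM (SD, n = 3). Itga5 and Itgb5 rose and Itga2, Itgb4, Itgav and Itgb1 fell, by smaller amounts. Itga6 and Itgb6 did not pass the test. At an adjusted p under 0.05 (edgeR, Benjamini-Hochberg over all genes tested), 8 of the 10 were called, 3 higher and 5 lower. Among all genes tested the share called was 47.5%, with 24.1% higher and 23.4% lower, and among the 8783 genes with at least the mean count of Itgb6 it was 55.5%. The median log2 fold change of the 10 was -0.08, against 0.00 for all genes tested. Libraries of the states did not overlap in CPM for 9 of the 10, against 55.9% of all genes tested, at any count level. No such share was computed for genes with counts like those of the members. In 3 of the 9 the activated libraries lay above (27.9% of all genes tested) and in 6 below (28.0%). In bulk RNA, fewer cells of a type and less RNA per cell cannot be told apart.

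**Figure D1:**
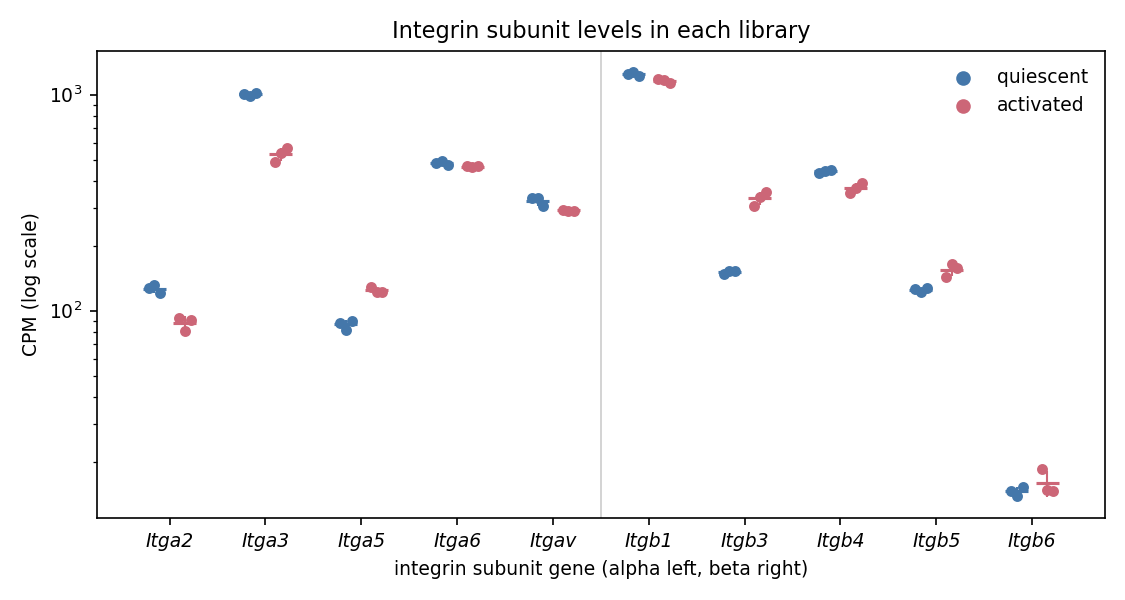
CPM on a log axis for each integrin subunit gene in each library, with alpha subunits left and beta subunits right; points are libraries, horizontal bars are means over 3 libraries and vertical bars ± SD. Itga3 and Itgb3 show the widest separation between quiescent and activated libraries, and Itgb6 is the only gene whose states overlap.

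Among the alpha subunits, Itga3 (chromosome 11, 95044475 to 95076811, minus strand, GRCm38) changed most. It stood at 1009.9, 990.3 and 1023 CPM in the quiescent and at 489, 536 and 565 CPM in the activated libraries. Every activated library was below every quiescent one, and the activated ones were more spread. The log2 fold change was -0.93 (SE 0.047, adjusted p = 6.6e-11), a 1.9-fold fall, and 11.4% of the genes tested had a larger change in either direction. Itga3 pairs with Itgb1 as a receptor for laminins that hold alpha 3 or alpha 5 chains.

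Itga2 (chromosome 13, 114835912 to 114932041, minus strand), which pairs with Itgb1 as a collagen receptor, was at 127, 131 and 120.3 CPM in the quiescent and at 92.1, 80.5 and 90.4 CPM in the activated libraries. The states did not overlap, and the fall was 1.44-fold (log2 -0.52, SE 0.054, adjusted p = 4.6e-07). Itga5 (chromosome 15, 103344286 to 103366791, minus strand), the alpha subunit of the main fibronectin receptor, moved the other way. Its quiescent libraries were at 87.6, 81.8 and 89.6 CPM and its activated libraries at 129, 122 and 122 CPM, all of them above the quiescent ones. The rise was 1.44-fold (log2 0.53, SE 0.047, adjusted p = 7.6e-08).

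Itga6 and Itgav moved little. Itga6 (chromosome 2, 71786886 to 71858427, plus strand), the laminin-binding alpha subunit that pairs with Itgb1 or Itgb4 and encodes the stem cell marker CD49f, was at 482, 491 and 473 CPM in the quiescent and 469, 461 and 466 CPM in the activated libraries. The activated libraries lay just below the quiescent ones, and the log2 fold change of -0.05 did not pass (95% interval -0.13 to 0.02, SE 0.036, adjusted p = 0.24). Itgav (chromosome 2, 83724108 to 83806917, plus strand), the shared alpha subunit of the RGD-binding pairs, was at 334, 333 and 304 CPM in the quiescent and 293, 290.5 and 291 CPM in the activated libraries. Quiescent replicate 3 was the lowest of its state, and still above the activated libraries. Itgav fell 1.11-fold (log2 -0.15, SE 0.041, adjusted p = 0.0055).

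The promoters of the 3 alpha subunit genes that changed most are shown because they lie before transcript starts of genes that moved in opposite directions. Each is the 250 bases before a RefSeq transcript start (GRCm38.p6), written on the gene's strand, with matches to any of 3 motifs on either strand in capitals. The motifs were the AP-1 site TGANTCA, the GC box GGGCGG and the TATA box TATAAA. The windows are chr11:95076715-95076964 for Itga3, chr13:114932101-114932350 for Itga2 and chr15:103366792-103367041 for Itga5, all on the minus strand. Part of the Itga3 window lies within the span of the gene, which ends at 95076811. For Itga3 and Itga2 the bases just after the start were found whole in the gene's longest GENCODE M21 transcript. For Itga5 they were not.
Itga3: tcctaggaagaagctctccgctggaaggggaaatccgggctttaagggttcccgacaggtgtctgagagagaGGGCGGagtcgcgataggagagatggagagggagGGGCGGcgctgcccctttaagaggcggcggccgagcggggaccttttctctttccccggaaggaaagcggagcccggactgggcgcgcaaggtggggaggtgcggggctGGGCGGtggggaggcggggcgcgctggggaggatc
Itga2: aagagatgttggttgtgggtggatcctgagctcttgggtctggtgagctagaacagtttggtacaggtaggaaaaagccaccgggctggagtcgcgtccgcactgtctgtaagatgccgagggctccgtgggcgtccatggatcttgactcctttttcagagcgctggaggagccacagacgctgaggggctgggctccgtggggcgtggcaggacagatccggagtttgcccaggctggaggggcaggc
Itga5: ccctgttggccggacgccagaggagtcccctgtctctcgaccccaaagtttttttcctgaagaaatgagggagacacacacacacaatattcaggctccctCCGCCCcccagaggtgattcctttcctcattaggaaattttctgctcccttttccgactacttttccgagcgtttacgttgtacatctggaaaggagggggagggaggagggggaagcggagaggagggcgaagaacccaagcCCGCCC
Itga3 held 3 GC boxes, Itga5 held 2 and Itga2 held 0, with a GC content of 67.6, 55.6 and 60.8%. The table held 9 windows for 7 of the 10 genes (not Itga6, Itgb3 or Itgb4). Of these windows 5 held a GC box, namely both of Itga3 and those of Itga5, Itgb1 and Itgb5, and 0 held an AP-1 site or a TATA box in these letters. Of all 32851 windows, 32.7% held a GC box, 6.75% an AP-1 site and 12.4% a TATA box. The Itgav window and a further window each of Itga3 and Itgb6 lay wholly within the span of the gene. A match is a run of letters and no measure of binding.

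Among the beta subunits, Itgb3 (chromosome 11, 104608000 to 104670476, plus strand) had the largest change. It was at 148, 153 and 152 CPM in the quiescent and 307, 335 and 354 CPM in the activated libraries. Every activated library stood far above every quiescent one, and activated replicate 1 was the lowest of its state. The log2 fold change was 1.13 (SE 0.047, 95% interval 1.03 to 1.23, adjusted p = 7.4e-12), with a larger change in 8.08% of the genes tested, and it alone of the 10 was called with a log2 change of 1 or more, against 5.94% of all genes tested higher and 3.39% lower by that much. Outside epithelium Itgb3 is known from platelets, where it pairs with Itga2b, and from endothelium and osteoclasts. Here Itga2b fell from 4.14 ± 0.134 to 2.87 ± 0.257 CPM (log2 -0.53, adjusted p = 0.016). The platelet and endothelial lists, whose sums are given above, held markers with values on both sides between the states, most of them with few counts, and their part in the Itgb3 level was not tested. The summed fibroblast markers, myeloid markers, and pericyte and smooth muscle markers were higher in the same libraries as Itgb3 and Itga5, with the sums given above. Of the 7 pericyte and smooth muscle markers 3 were higher, 2 were lower and 2 did not pass. Of the 14 myeloid markers 8 were higher, 1 was lower and 5 did not pass. Within their sum Cd14 alone went from 441 ± 8.79 to 702 ± 9.31 CPM. The part of these cell types in the rise of Itgb3 and Itga5 was not tested.

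Itgb5 (chromosome 16, 33829665 to 33949338, plus strand), another partner of Itgav that binds vitronectin, was at 125, 122 and 127 CPM in the quiescent and 143, 164 and 158 CPM in the activated libraries. All activated libraries were higher, by 1.24-fold (log2 0.31, SE 0.047, adjusted p = 3.4e-05). Of the 31-base words in the longest GENCODE M21 transcript of Itgb5, 8.7% were also in another gene model, and for Itga6 the share was 6.92%. The share was at most 1.01% in the other 8 genes. Itgb6 (chromosome 2, 60598292 to 60722603, minus strand), the epithelial partner of Itgav that activates latent TGF-beta, had the lowest level, also per length, at 14.6, 13.8 and 15.3 CPM in the quiescent and 18.4, 14.7 and 14.7 CPM in the activated libraries. Activated replicate 1 alone stood above all quiescent libraries, the states overlapped, and the log2 fold change of 0.13 did not pass (SE 0.102, 95% interval -0.09 to 0.34, adjusted p = 0.32).

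Itgb4 (chromosome 11, 115974725 to 116008412, plus strand), whose long cytoplasmic tail links Itga6 to keratin filaments in hemidesmosomes, was at 433, 444 and 447 CPM in the quiescent and 352, 369 and 388 CPM in the activated libraries. The states did not overlap, and the fall was 1.19-fold (log2 -0.25, SE 0.041, adjusted p = 6.6e-05). The span of Itgb4 overlaps Galk1 on the opposite strand, which had at most 1029 counts in a library, and whether counting used strand is not stated, so reads of the pair may not be told apart. Itgb1 (chromosome 8, 128685654 to 128733579, plus strand), the most widely shared beta subunit, had the highest level of the 10, also per length, at 1248, 1273 and 1221 CPM in the quiescent and 1176, 1175 and 1135 CPM in the activated libraries. The activated libraries were lower in every case but by little, 1.07-fold (log2 -0.10, SE 0.038, adjusted p = 0.035). That call ended with upper quartile scaling (adjusted p = 0.07), with no filter beyond 1 count (0.052) and without quiescent replicate 1 (0.087), quiescent replicate 2 (0.14), activated replicate 2 (0.073) or activated replicate 3 (0.16).

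**Figure D2:**
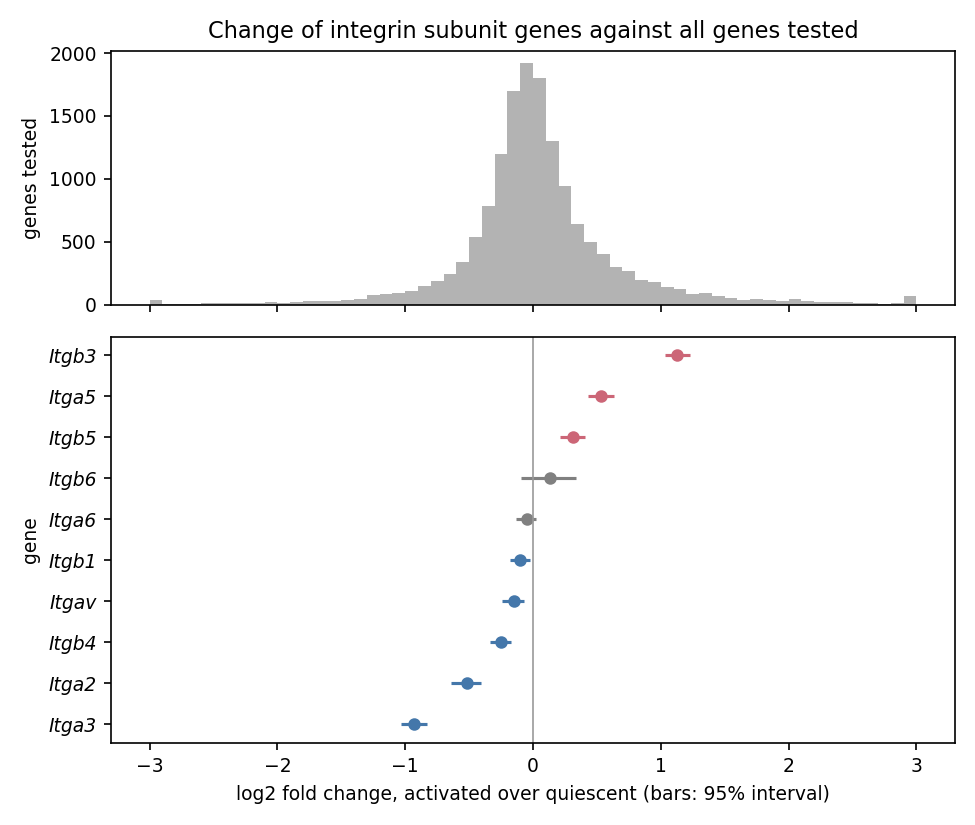
Top, histogram of log2 fold changes (activated over quiescent) of all 15223 genes tested, with values beyond 3 in either direction gathered in the end bins; bottom, the 10 integrin subunit genes with 95% intervals, red where called higher, blue where called lower and grey where not past the threshold. Itgb3 at 1.13 and Itga3 at -0.93 lie farthest from 0, and 6 of the 10 lie within 0.5 of it.

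Levels of different genes were compared per length, as CPM per kilobase (kb) of the gene length given in the file. In quiescent libraries the order was Itgb1 (297 ± 6.3 CPM per kb), Itga3 (189.9 ± 3.13), Itga6 (78 ± 1.45), Itgb4 (69.3 ± 1.18), Itgav (44.1 ± 2.27), Itgb5 (38 ± 0.781), Itga2 (29.9 ± 1.31), Itgb3 (25.4 ± 0.439), Itga5 (19.3 ± 0.915) and Itgb6 (2.72 ± 0.144), and no neighbours in that order overlapped in range over the 3 libraries. In activated libraries the first 4 kept their places, with Itgb1 at 277 ± 5.58, Itga3 at 99.9 ± 7.2, Itga6 at 75.2 ± 0.646 and Itgb4 at 58.1 ± 2.83 CPM per kb. Itgb3 moved from eighth to the fifth place at 55.6 ± 3.94 CPM per kb, where its range overlapped that of Itgb4. Itgb5 followed at 47.3 ± 3.17, Itgav at 39.7 ± 0.163, Itga5 at 27.8 ± 0.797, Itga2 at 20.8 ± 1.49 and Itgb6 at 2.98 ± 0.402 CPM per kb, with no overlap between neighbours in this part of the order. The middle of the order depended on the length used. With coding lengths of GENCODE M21, chosen after seeing the data, Itgb1, Itga3 and Itga6 stayed the first 3 in both states, while Itgb3 stood at place 6 in quiescent (64.1 ± 1.11 CPM per kb) and place 4 in activated libraries (140.5 ± 9.96 CPM per kb), where its range overlapped that of Itga6.

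Summed over the 5 alpha genes, the level per kb was 359 to 363 CPM per kb in quiescent and 258 to 270.1 CPM per kb in activated libraries, a difference in means of -27.1%. Without Itga3 the alpha sum was 171 ± 4.11 and 163 ± 2.85 CPM per kb, so most of the difference in the sum came from Itga3. Summed over the 5 beta genes, the level was 428 to 439 and 434 to 447 CPM per kb, and the ranges overlapped. With coding lengths in place of the file's lengths, the beta sum was 715 to 734 and 752 to 773 CPM per kb, with no overlap.

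The make-up of both sums differed between the states. Itga3 made up 52.4, 51.7 and 53.7% of the alpha sum for quiescent and 35.7, 38.6 and 39.4% for activated libraries, a mean difference of -14.7 percentage points. The shares of Itga6 (21.6 ± 0.379 and 28.6 ± 0.719%), Itgav (12.2 ± 0.578 and 15.1 ± 0.391%) and Itga5 (5.35 ± 0.258 and 10.6 ± 0.508%) were larger in activated libraries. The share of Itga2 was 8.28 ± 0.345 and 7.9 ± 0.581%, with overlapping ranges. Itgb3 made up 5.76, 5.86 and 5.96% of the beta sum for quiescent and 11.8, 12.5 and 13.4% for activated libraries, a mean difference of 6.74 percentage points. The share of Itgb1 went from 68.7 ± 0.663 to 62.8 ± 1.66%, that of Itgb4 from 16 ± 0.333 to 13.2 ± 0.558% and that of Itgb5 from 8.78 ± 0.289 to 10.7 ± 0.572%. The difference for Itgb5 was 1.93 percentage points, and 1.24 with coding lengths. Itgb6 held under 1% of the beta sum in every library. A different share does not mean a different level, since the share of Itga6 was larger while its level did not pass the test.

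**Figure D3:**
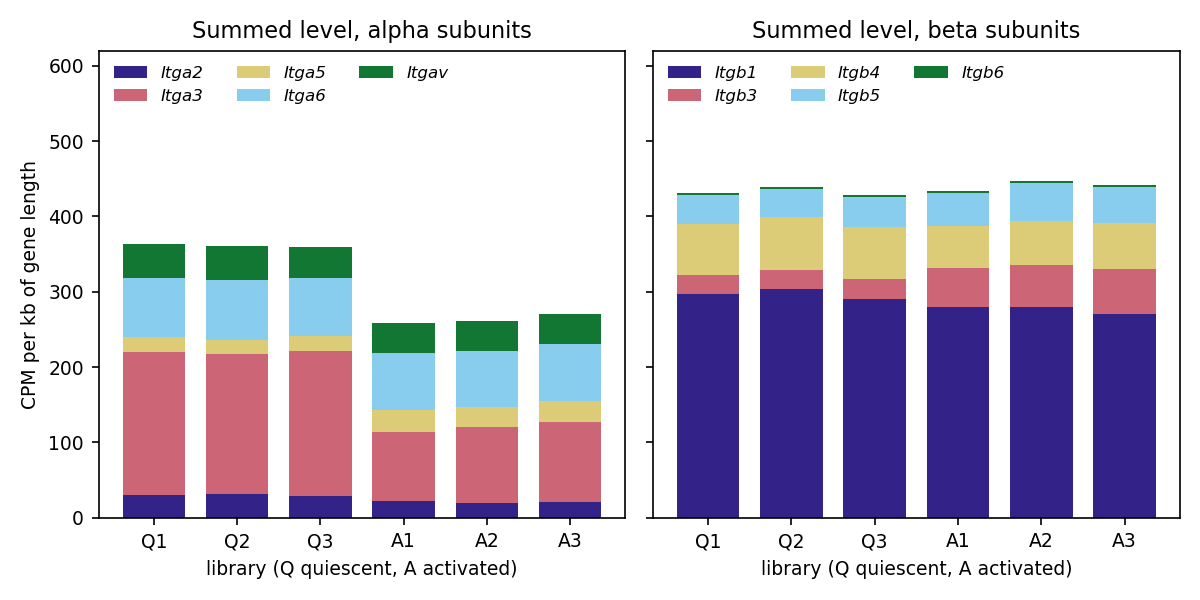
Stacked levels in CPM per kb of gene length for the 5 alpha (left) and 5 beta (right) integrin genes in each library, Q1 to Q3 quiescent and A1 to A3 activated. The alpha stacks are lower in the activated libraries, mainly in the Itga3 segment, while the beta stacks are of similar height and hold a larger Itgb3 segment.

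Ratios between partner genes were compared within libraries for 13 pairs, as log2 ratios of CPM. Libraries of the states did not overlap for 11 of the 13, 5 higher and 6 lower in activated CSCs. Among all pairs of genes tested, at any count level, the share was 55.4%. The 13 pairs were drawn from the same 10 genes, of which only 1 overlapped between the states on its own. The pairs are therefore not independent. With 3 libraries against 3, an exact two-sided permutation test cannot go below p = 0.1, so no pair could pass. In that exact permutation test each of the 11 had p = 0.1 (0.118 adjusted over the 13 pairs), and the others had p = 0.2.

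Among ratios with Itgav, the one to Itgb3 differed most. The log2 ratio of Itgav to Itgb3 was 1.17, 1.12 and 1 for quiescent libraries and -0.07, -0.20 and -0.28 for activated libraries. The ratio was lower in every activated library than in any quiescent one. The mean difference was -1.28, or 2.43-fold (exact permutation p = 0.1). For Itgav to Itgb5 the difference was -0.46, from 1.37 ± 0.099 to 0.91 ± 0.104 (SD, n = 3). Itgav to Itgb6 (-0.27) and Itgav to Itgb1 (-0.05) overlapped between the states. Among the beta partners of Itgav, the log2 ratio of Itgb3 to Itgb5 was higher by 0.82 and that to Itgb6 by 1.01, with no overlap between the states in either case.

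The alpha partners of Itgb1 went different ways. The log2 ratio of Itga3 to Itgb1 was -0.31, -0.36 and -0.25 for quiescent and -1.27, -1.13 and -1.01 for activated libraries, a mean difference of -0.83 (exact permutation p = 0.1). Itga2 to Itgb1 differed by -0.42 and Itga5 to Itgb1 by 0.63. Itga6 to Itgb1 was -1.37, -1.37 and -1.37 for quiescent and -1.33, -1.35 and -1.28 for activated libraries, a difference of 0.05 with no overlap and an SD of 0.004 in quiescent and 0.034 in activated libraries. Itga3 to Itga6, the 2 laminin-binding alpha genes, was at 1.06 ± 0.051 and 0.19 ± 0.111, a difference of -0.88. Itga6 to its hemidesmosome partner Itgb4 differed by 0.20, from 0.13 ± 0.039 to 0.33 ± 0.075, and Itgb4 to Itgb1 by -0.15.

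**Figure D4:**
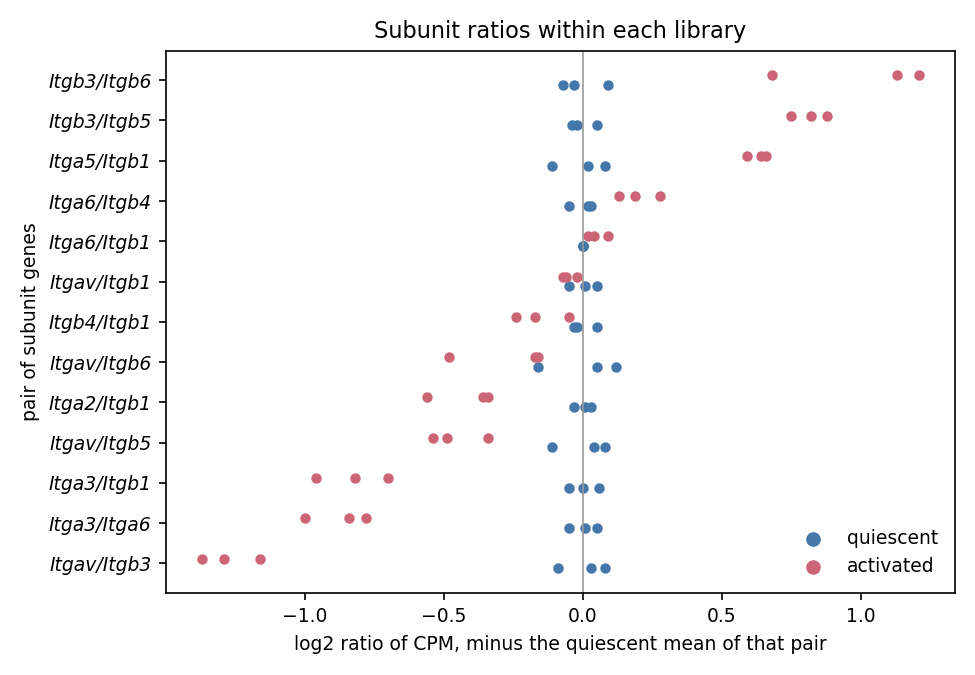
Log2 ratio of CPM between 2 integrin genes in each library, minus the quiescent mean of that pair, for 13 pairs ordered by difference. Activated libraries lie farthest below 0 for Itgav/Itgb3 (-1.28) and farthest above 0 for Itgb3/Itgb6 (1.01).

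Ligand genes of the integrins were read from lists, and these and the lists that follow stand beside the 47.5% of all genes tested that were called, 24.1% higher and 23.4% lower. Of 11 laminin chain genes 2 rose, 6 fell and 3 did not pass (median log2 -0.22). Lama5, the alpha chain of laminins bound by the pairs of Itga3 and Itga6, fell from 641 ± 25.8 to 375 ± 10.3 CPM (log2 -0.77, adjusted p = 8e-11), the largest fall among them. Lamb1, a beta chain, also fell (log2 -0.37). Lamb3, a beta chain of epithelial laminins, rose from 92.6 ± 2.6 to 127 ± 6.57 CPM, while Lama3, an epithelial alpha chain, named after its value was seen, fell from 26.1 ± 1.3 to 22.4 ± 0.535 CPM (adjusted p = 0.022).

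Of 22 tested genes of RGD and collagen ligands, 12 rose, 7 fell and 3 did not pass (median 0.26). Col3a1, a fibrillar collagen gene, rose 2.76-fold, Tgfb3, whose latent form is bound by Itgav pairs, 2.37-fold, and Tnc, the matrix glycoprotein tenascin C, 1.96-fold. Thbs1, thrombospondin, fell from 3898 ± 59.2 to 1783 ± 6.3 CPM (log2 -1.13, adjusted p = 3.3e-13). Chosen after their values were seen, Mfge8, a ligand of Itgav with Itgb3 or Itgb5, rose 2-fold (1576 ± 26.3 to 3151 ± 93.9 CPM), whereas Fn1, fibronectin, fell 1.38-fold (2949 ± 56.5 to 2139 ± 56.3 CPM) and Spp1, osteopontin, fell 1.41-fold (7068 ± 24.7 to 5002 ± 370.3 CPM). Itga5 and its ligand gene Fn1 thus moved in opposite directions, and the RGD ligands of Itgb3 went both ways. Col3a1 is also one of the fibroblast markers that were higher in activated libraries, and the part of fibroblast RNA in this list was not tested. Vtn, vitronectin, had too few counts to be tested, at 0.0713 ± 0.0799 CPM in quiescent and 0 in activated libraries.

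Of 13 hemidesmosome, tetraspanin and other membrane partners of integrins 7 fell, 1 rose and 5 did not pass (median -0.37). Among all genes tested 23.4% were lower and 24.1% higher. Plaur, the urokinase receptor, which binds integrins at the surface, fell 2.52-fold (148 ± 4.25 to 58.8 ± 1.39 CPM, adjusted p = 2.7e-13). Slc3a2, the heavy chain CD98 that binds beta subunit tails, fell 1.9-fold, the tetraspanin Cd9 1.49-fold and Cd47, a partner of Itgav with Itgb3, 1.53-fold. Cd151, the tetraspanin most closely tied to Itga3 and Itga6 and named after its value was seen, fell with Itga3 from 459 ± 18 to 287 ± 22 CPM (log2 -0.68, adjusted p = 9.6e-08). Plec, the plectin that binds Itgb4, named likewise, fell 1.29-fold, and Dst, the other hemidesmosome plakin, was at 360 ± 18.5 and 363 ± 28.9 CPM (adjusted p = 0.88).

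Of 37 genes of focal adhesions and integrin activation, 13 rose, 16 fell and 8 did not pass (median -0.07), against 24.1% higher and 23.4% lower among all genes tested. Tln2, one of 2 talins that bind beta subunit tails and activate integrins, rose from 145 ± 4.12 to 297 ± 6.49 CPM (log2 1.04, adjusted p = 7.9e-13), and Tns3, a tensin, rose 1.44-fold. Actn1, an actin crosslinker, fell 1.52-fold and Tns4 1.45-fold. Named after their values were seen, the other talin Tln1 rose 1.11-fold, Fermt1, the epithelial kindlin, rose 1.56-fold and Pxn, paxillin, fell 1.29-fold, while Ptk2, focal adhesion kinase, was at 92.5 ± 2.02 and 86.8 ± 1.62 CPM (adjusted p = 0.1). As a list these genes lay on both sides of 0, as the integrin genes did.

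Of 16 genes of the latent TGF-beta axis, which pairs of Itgav with Itgb6 or Itgb8 can activate, 8 rose, 3 fell and 5 did not pass (median 0.17), against 24.1% higher and 23.4% lower among all genes tested. Ltbp2 rose 3.36-fold. Of the other Ltbp genes in the list, named after their values were seen, Ltbp1 fell 1.24-fold and Ltbp3 and Ltbp4 did not pass. Lrrc32, which anchors latent TGF-beta on the cell surface, rose from 23 ± 1.78 to 60.8 ± 6.16 CPM. Tgfbr2, the type II receptor gene, fell 1.75-fold. Itgb6 itself did not pass, and Itgb8, named after its value was seen, rose 1.13-fold (37.2 ± 1.5 to 42.1 ± 0.429 CPM, adjusted p = 0.015). Of 14 tested integrin subunits outside the 10, 5 rose, 4 fell and 5 did not pass (median 0.12), against the same shares of all genes. Itga8, a partner of Itgb1 for RGD ligands, fell from 80.4 ± 2.66 to 56 ± 1.42 CPM, while the myeloid subunits Itgam (38.3 ± 1.22 to 56.6 ± 3.27 CPM) and Itgax (40.3 ± 1.26 to 48.5 ± 2.77 CPM) and Itga4 (1.33 ± 0.625 to 3.5 ± 0.345 CPM) rose. Itgb2, the beta partner of Itgam and Itgax, also named after its value was seen, had 68.4 ± 1.48 CPM in quiescent libraries and 68.1 ± 3.33 CPM in activated ones (adjusted p = 0.94). In the same libraries 10 of 11 tested fibroblast markers were higher. Of 14 myeloid markers, a list that itself holds Itgam and Itgb2, 8 were higher and 1 was lower. The part of both cell types in the values of both lists was not tested.

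**Figure D5:**
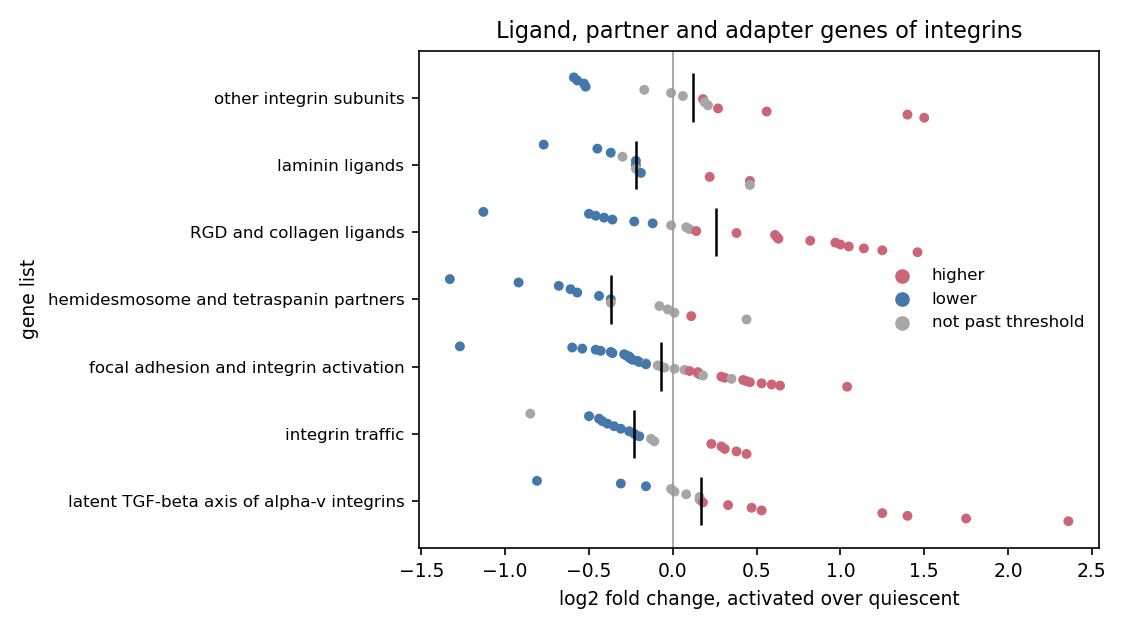
Log2 fold change (activated over quiescent) of each tested gene in 7 lists of integrin ligands, partners, adapters, traffic genes and other subunits; red and blue points were called higher and lower, grey points did not pass, and black bars are list medians. The list of hemidesmosome and tetraspanin partners has the lowest median at -0.37 and the ligand list with collagens the highest at 0.26. Every list holds genes on both sides of 0.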

How the data were processed

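The file deposited by the authors held counts of reads per gene, not normalized, with a different total in each library. The submitters' processing notes name featureCounts 1.5.0-p3, HISAT2 2.0.5 and StringTie 1.3.3b, without roles. Coordinates carry GRCm38 accessions. The file also held a gene length, of unstated origin, and 187 loci without a gene name, which were kept.

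Genes were tested with edgeR 4.0.16 (R 4.3.3): a robust quasi-likelihood fit, genes kept by filterByExpr, libraries scaled by TMM, p-values adjusted by Benjamini-Hochberg over 15223 genes. An adjusted p under 0.05 was called. Levels are mean ± SD of TMM-scaled CPM over 3 libraries. DESeq2 1.42.0, limma-voom (limma 3.58.1), other scalings, filters and thresholds, a replicate block and leaving out each library were alternatives. Ratios were tested by exact permutation (scipy 1.17.1). The model was first run on simulated data, with changes planted in genes drawn at random from those tested. It called 34% of the 1.25-fold, 60.4% of the 1.5-fold, 82% of the 2-fold and 93.8% of the 4-fold changes. Small planted changes were thus often missed in the simulated data. There 48 or 50 changes of each size were planted among 15009 genes, whereas the main fit called 7236 of 15223. The adjustment of p-values depends on how many genes change, so these shares do not give the rate of missed changes in the main fit. They were not computed for genes with counts like those of the members.

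The members and lists were chosen with earlier results of these data known. Named genes were the 10 members, Setd4, in each other list the 4 with the lowest adjusted p, and the 2 most abundant markers of each cell type; others are said to be chosen after their values were seen. Some genes that this rule names are not reported here. No libraries of one state were alike within counting noise, with a chi-square of 4.01 to 7.99 per degree of freedom, and all 6 were used. Sequences are from RefSeq (GRCm38.p6) and shared words from GENCODE M21.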

Additional observations from a re-analysis of the deposited data

How the results depend on the processing

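Of the members, the direction of each log2 fold change was the same under every scaling, tool, filter and left-out library tried, and at an adjusted p under 0.05 the call changed only for Itgb1 (values in the report). In these settings 3 members were called higher and 4 or 5 lower. The whole comparison gave 7236 genes in the main fit and 6387 to 7359 with a library left out. It gave 6061 with DESeq2, 7700 with no filter beyond 1 count and 5557 at an adjusted p under 0.01.

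Asking also for an absolute log2 of at least 1 left, by construction, 1420 genes, 1 member higher and 0 lower. In the lists it left 2 other integrin subunits, 0 laminins, 5 RGD and collagen ligands, 1 gene of the hemidesmosome and tetraspanin partner list, 2 focal adhesion, 0 traffic and 4 latent TGF-beta genes. The other integrin subunits gave 5 calls with DESeq2 and 5 at an adjusted p under 0.01, against 9. With a library left out the lists gave, in the same order, 6 to 9, 7 to 8, 18 to 20, 7 to 9, 26 to 28, 14 to 15 and 10 to 12 calls.

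The Itgb3 share of the beta sum differed by 9.52 percentage points with GENCODE coding lengths, an alternative chosen after seeing the data, and by 8.65 with no division by length, and by 6.33 to 7.12 with a library left out. For the Itga3 share of the alpha sum this range was -15.4 to -13.6. The Itgb6 share differed by 0.0468 percentage points, and by -0.0114 (without activated replicate 1) to 0.0768 with a library left out. Coding lengths also moved 9 of 20 places in the order of levels per length, 5 of them in quiescent libraries. The planned coding length of RefSeq proteins was not run.

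The replicate numbers did not pair the libraries: correlations of same-numbered deviations were 0.01, -0.03 and 0.04. With the replicate block 7042 genes were called, with 3 members higher and 5 lower. For the ratios the block asked only that the 3 same-numbered differences share a sign, a looser rule than no overlap. That rule was met by 11 of 13 pairs of genes. Under the rule of no overlap, leaving out quiescent replicate 3 or activated replicate 3 separated the states for all 13. Itgb6, with the fewest counts of the members (at least 255 per library), had the largest standard error.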

Other observations

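Genes of integrin traffic, which carry integrins through endosomes back to the surface, went both ways. Of 17 tested genes 5 rose, 9 fell and 3 did not pass (median log2 -0.23, edgeR, against 24.1% higher and 23.4% lower among all genes tested). Rab11fip1, an effector of the recycling GTPase Rab11, fell from 119 ± 2.64 to 84.4 ± 2.24 CPM (SD, n = 3; log2 -0.50, adjusted p = 6.7e-08), and Rab11a itself fell 1.34-fold. Rab21, a GTPase that binds alpha subunit tails, fell 1.36-fold, and Chp1 fell 1.24-fold. Chosen after their values were seen, the endocytic adapters Dab2 and Numb rose 1.36-fold and 1.24-fold and Snx17, a sorting nexin that returns Itgb1 from endosomes to the surface, rose 1.23-fold.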
